A study of Mus musculus with 20 samples.

Results

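The genes described here encode the nuclear subunits of the mitochondrial respiratory chain and of the ATP synthase. They were the symbols beginning with Nduf, Uqcr, Cox4 to Cox8 or Atp5, together with Sdha to Sdhd, and they numbered 91 of the 23382 symbols measured. By complex, 36 belonged to complex I, with 6 further assembly factors named in the same series, 4 to complex II, 8 to complex III, 20 to complex IV and 15 to the ATP synthase, and 2 were related proteins. RNA had been sequenced from sorted mouse germinal centre B cells, in 20 libraries that formed 4 groups of 5. The groups were Myd88 L252P heterozygous centrocytes, control centrocytes, Myd88 L252P heterozygous centroblasts and control centroblasts. The heterozygous libraries are called mutant in what follows. Myd88 is the adaptor of Toll-like receptors, and the genotype label of the mutants was Myd88L252P:+/- and that of the controls Myd88L252P:WT. All 20 libraries, controls included, came from mice with 1 copy of Cgamma1Cre (+/-), a Cre recombinase expressed from the locus of the immunoglobulin constant region C gamma 1, which is transcribed in germinal centre B cells. Centrocytes, the light zone cells, had been gated as B220+FAS+GL7+CXCR4-CD86+ and centroblasts, the dividing dark zone cells, as B220+FAS+GL7+CXCR4+CD86-. No age is given. Nothing in the labels ties each of the 5 libraries in a group to its own mouse, so the p-values reflect the spread among the libraries sequenced, part of which may be technical.

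Complex I (NADH dehydrogenase) and complex II (succinate dehydrogenase) pass electrons to coenzyme Q, complex III passes them on to cytochrome c and complex IV to oxygen. Complexes I, III and IV pump protons across the inner membrane, and the ATP synthase, also called complex V, uses the resulting gradient to make ATP. Complex II is also an enzyme of the citrate cycle, and it is the only complex of the chain whose subunits are all encoded in the nucleus. Germinal centre B cells divide rapidly in the dark zone and are selected in the light zone. The subunits encoded by mitochondrial DNA were not analysed here.

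Promoters are shown for 4 genes called between the zones. Sdhb, Cox6a1 and Cox7a2l were lower in centrocytes, with the smallest adjusted p in controls of the lower genes with a listed window. Ndufaf4 was the only gene called higher in controls. The windows run from 250 bases before to 50 bases after the start given by RefSeq (GRCm38.p6), read 5′ to 3′ on the gene's strand. Sdhb lies at chr4:140961021-140961320 on the plus strand, Cox6a1 at chr5:115348909-115349208 and Cox7a2l at chr17:83514284-83514583, both on the minus strand, and Ndufaf4 at chr4:24897833-24898132 on the plus strand. Capitals mark matches to 3 motifs of factors known for respiratory genes, searched on both strands, namely the palindrome bound by NRF1 (the capitals in the Ndufaf4 window, the same letters on both strands), CCGGAAG (ETS family, with CTTCCGG on the other strand) and AAGATGGCG (YY1), which do not overlap each other in these windows.
Sdhb: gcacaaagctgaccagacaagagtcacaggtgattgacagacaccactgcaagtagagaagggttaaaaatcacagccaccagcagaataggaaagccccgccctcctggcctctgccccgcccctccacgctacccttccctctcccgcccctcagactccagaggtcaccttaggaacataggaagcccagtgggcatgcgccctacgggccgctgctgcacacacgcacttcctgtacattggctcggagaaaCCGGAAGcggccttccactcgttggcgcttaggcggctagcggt
Cox6a1: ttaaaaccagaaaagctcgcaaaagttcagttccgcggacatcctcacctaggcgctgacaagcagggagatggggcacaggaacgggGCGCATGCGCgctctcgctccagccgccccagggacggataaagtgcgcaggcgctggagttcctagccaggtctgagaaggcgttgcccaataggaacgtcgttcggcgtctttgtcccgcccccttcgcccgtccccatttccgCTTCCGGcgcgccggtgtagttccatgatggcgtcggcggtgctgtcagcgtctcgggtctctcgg
Cox7a2l: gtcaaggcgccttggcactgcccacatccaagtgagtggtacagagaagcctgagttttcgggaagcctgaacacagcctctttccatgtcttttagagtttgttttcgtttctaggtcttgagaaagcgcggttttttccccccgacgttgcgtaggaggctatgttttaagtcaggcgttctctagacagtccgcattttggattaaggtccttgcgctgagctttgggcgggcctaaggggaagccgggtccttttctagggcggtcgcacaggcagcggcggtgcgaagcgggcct
Ndufaf4: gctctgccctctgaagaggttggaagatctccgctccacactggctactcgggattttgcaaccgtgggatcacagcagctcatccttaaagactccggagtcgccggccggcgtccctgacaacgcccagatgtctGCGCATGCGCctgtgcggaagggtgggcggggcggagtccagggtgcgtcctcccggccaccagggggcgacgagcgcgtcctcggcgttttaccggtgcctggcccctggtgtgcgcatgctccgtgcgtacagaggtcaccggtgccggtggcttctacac
The Sdhb window held the ETS letters, whose first base was base 7 after the start. The Cox6a1 window held the NRF1 letters from base -162 and the ETS letters on the other strand from base -16, and the Ndufaf4 window held the NRF1 letters from base -113. The Cox7a2l window held none of the 3 motifs. The NRF1 letters therefore stood in front of a gene that was lower in centrocytes and of one that was higher. A window was listed for 72 of the 91 genes. A gene is counted below where any of its listed windows held the letters, so a gene with more windows had more chances of a match. Among the 72 genes, 7 (9.72%) held the NRF1 letters, against 1.07% of all 27025 genes with a window. The ETS letters were held by 17 (23.6%), against 9.93%, and the YY1 letters by 7 (9.72%), against 1.64%. At least 1 of the motifs was held by 28 genes (38.9%), against 12.1% of all genes. The 27025 genes were not limited to those expressed in these cells. The higher shares are therefore not shown to be particular to respiratory genes. A match is a description of the sequence and was not tested as a binding site.

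Values are TPM, a measure of transcript abundance that is corrected for transcript length and has an equal sum in every library. TPM keeps no read depth, so depth is unknown. Between 12719 and 14092 genes were above 0 in a library. Mutant centroblast libraries 4 and 5 stood apart. Genes with short transcripts (up to 1566.2 bases, the genes described here left out) took 48.71% and 55.11% of their TPM, against 38.11% to 44.11% in the other 18 libraries, and symbols of ribosomal proteins took 11.31% and 15.24%, against 6.542% to 8.952%. These libraries also had the fewest genes above 0, 12895 and 12719. The genes described here are short, with 69 of the 85 tested at or under the same limit. All 10 B cell and germinal centre markers were found, and their summed TPM was 10732 to 12353 in mutant centrocytes, 12541 to 13689 in control centrocytes, 10905 to 12040 in mutant centroblasts and 11971 to 12923 in control centroblasts. The test was limma on log2(TPM + 1) over the 11386 genes that reached 1 TPM in 5 or more libraries, and a gene is called where the p adjusted over all of them is under 0.05. Fold changes are log2 differences on this scale, which understates the change of low genes.

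**Figure D1:**
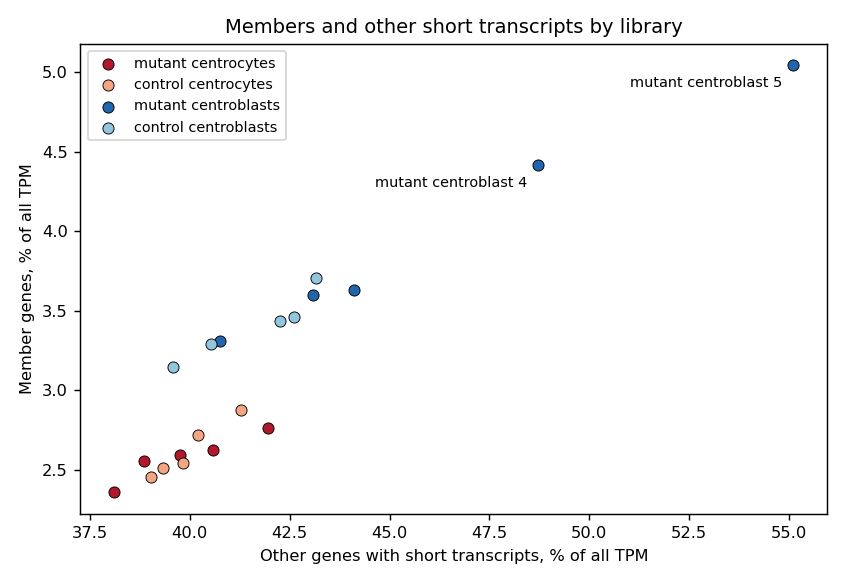
Members of the respiratory chain and ATP synthase group, as a percent of all TPM (y axis), against the percent taken by other genes with short transcripts (x axis), 1 point per library. Mutant centroblast libraries 4 and 5 lie apart at the upper right, and the 10 centrocyte libraries lie below all 10 centroblast libraries.

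Respiratory chain and ATP synthase transcripts were lower in centrocytes than in centroblasts of both genotypes. Together they took 2.36% to 2.76% of all TPM in mutant centrocytes, 2.46% to 2.88% in control centrocytes, 3.31% to 5.04% in mutant centroblasts and 3.15% to 3.71% in control centroblasts, so that every centrocyte library was below every centroblast library. In bulk samples, fewer cells that express a gene and less RNA per cell cannot be told apart. In mutants, 70 of the 85 tested genes fell and 2 rose, where 12.6% of all genes tested fell and 48.8% rose. In controls, 51 fell and 1 rose, where 9.48% of all genes fell and 21.2% rose. The share of these genes called lower was thus 82.4% in mutants and 60% in controls. The median log2 fold change of the 85 genes was -0.51 in mutants, against 0.34 for all genes tested, and -0.30 in controls, against 0.14. Of the genes that fell, 50 did so in both genotypes, and in each genotype 79 of the 85 fold changes were below 0. For these counts of overlap and of sign the shares of all genes are not given here. They are therefore not read as a result about these genes.

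**Figure D2:**
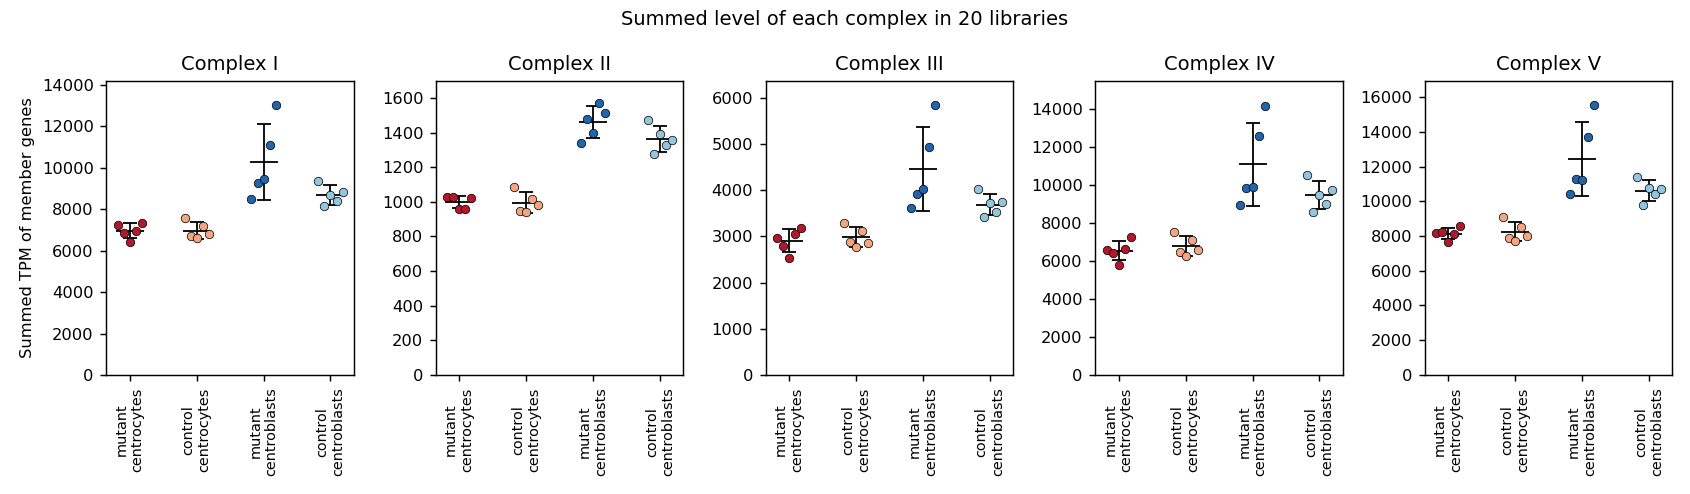
Summed TPM of the member genes of each complex (y axis, from 0) in the 20 libraries, with 5 points per group and the mean and SD as bars. In each of the 5 complexes all centrocyte libraries lie below all centroblast libraries of the same genotype, and mutant centroblasts spread most.

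Groups of 5 that did not overlap, with every centrocyte library under every centroblast library, were seen for 56 of the 85 genes in mutants, where 7.91% of all genes did this, and for 45 in controls, where the share was 9.51%. Libraries were also scaled to a common median ratio, which moved the median of all genes by 0.31 in mutants and 0.13 in controls. After that scaling 28.6% of all genes fell and 29.9% rose in mutants, and 17.4% fell and 18.2% rose in controls, while of the respiratory genes 78 fell in mutants and 48 in controls. Without mutant centroblast libraries 4 and 5, 65 fell in mutants, where 14.9% of all genes fell, and 64 in controls, where 14.3% did. Those 2 libraries enter the comparison of controls only through the shared estimate of the spread. With the short-transcript share of each library as a covariate, 52 fell in mutants, where 15.6% of all genes fell, and 59 in controls, where 17.1% did.

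In mutants, the median fold change of the respiratory genes with short transcripts was -0.54 and that of the longer ones -0.24, against -0.02 and 0.43 for other short and other long genes. In controls, the median fold change of the respiratory genes with short transcripts was -0.32 and that of the longer ones -0.26, against -0.02 and 0.18 for other short and other long genes. Macrophage and monocyte markers moved with the zones. Of the 12 listed 11 were found, none was at 0 in all libraries of a group, and their summed TPM was 89.3 to 221 in mutant centrocytes, 113 to 235 in control centrocytes, 42.2 to 86.0 in mutant centroblasts and 46.1 to 65.6 in control centroblasts. Of the 9 tested, 8 were higher in centrocytes in each genotype. Plasma cell markers, of which 7 of 8 were found and none was at 0 in a whole group, summed to 842 to 1392 TPM in mutant centrocytes, 934 to 1167 TPM in control centrocytes, 1625 to 2015 TPM in mutant centroblasts and 1559 to 1958 TPM in control centroblasts. Igj, the joining chain of secreted antibodies, made up most of this sum, at 507 to 949 TPM in mutant centrocytes, 563 to 775 TPM in control centrocytes, 1273 to 1537 TPM in mutant centroblasts and 1157 to 1468 TPM in control centroblasts. Of the 6 plasma cell markers tested, 2 were higher and 2 lower in centrocytes in each genotype, and Irf4 ran against the sum, at 59.95 to 96.6 TPM in mutant centrocytes, 59.1 to 81.3 TPM in control centrocytes, 9.15 to 34.2 TPM in mutant centroblasts and 18.9 to 30.3 TPM in control centroblasts. Prdm1 did so too, with means of 13.2 TPM in mutant centrocytes, 4.64 in control centrocytes, 2.91 in mutant centroblasts and 1.48 in control centroblasts. The listed markers Sdc1 and Tnfrsf17 were at 2.50 and 1.09 TPM or less in every library. T cell markers, of which 7 of 8 were found, summed to 202 to 246 TPM in mutant centrocytes, 178 to 293 TPM in control centrocytes, 164 to 247 TPM in mutant centroblasts and 100.1 to 230 TPM in control centroblasts. Nearly all of this was Lck, at 97.5 TPM or more in every library, and Cd3e, a defining T cell marker, was at 1.37 TPM or less in every library. Of the 2 T cell markers tested, both were higher in centrocytes in controls and neither was called in mutants. The part of these cell types in the zone results was not tested.

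**Figure D3:**
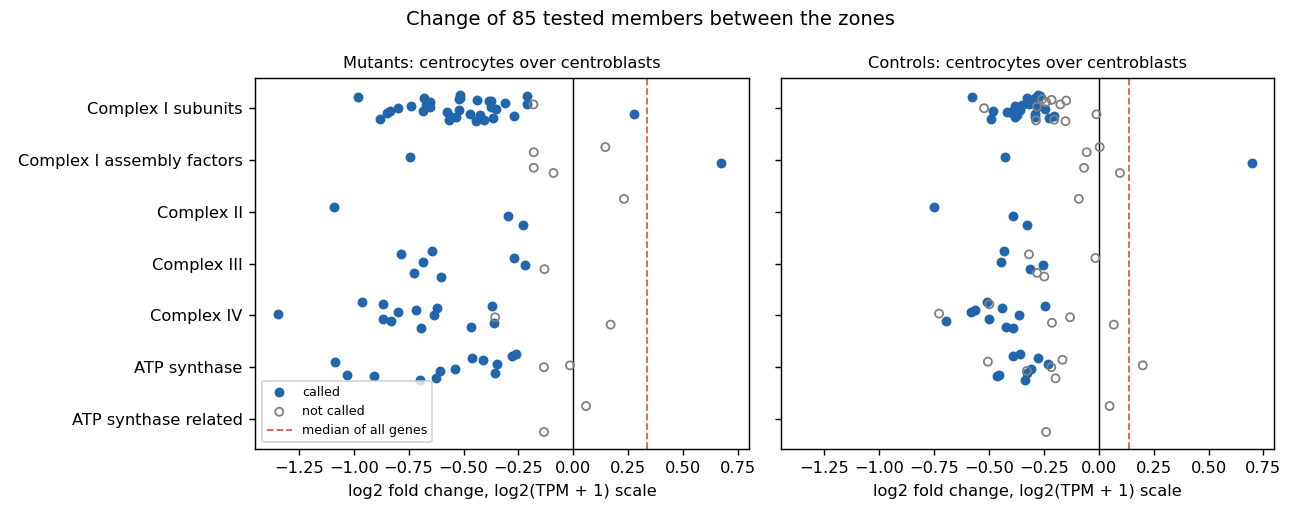
Log2 fold change of centrocytes over centroblasts (x axis) for the 85 tested genes by complex (rows), in mutants on the left and controls on the right. Filled points are called, open points are not, and the dashed line is the median of all genes tested, 0.34 in mutants and 0.14 in controls.

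Complex I is the largest complex of the chain, with a core that carries the flavin, the iron-sulphur clusters and the coenzyme Q site, and many accessory subunits around it. Its summed TPM averaged 6965 ± 368 in mutant centrocytes, 6971 ± 397 in control centrocytes, 10282 ± 1825 in mutant centroblasts and 8692 ± 471 in control centroblasts (SD, n = 5 each). In mutants 33 of the 35 tested subunit genes fell (94.3%) and 1 rose, and in controls 24 fell (68.6%). Counts by complex are read against the shares of all genes tested. These were 12.6% falling and 48.8% rising in mutants, and 9.48% falling and 21.2% rising in controls. Of the 7 core subunits 6 fell in mutants (85.7%) and 4 in controls (57.1%). Of the 28 tested accessory subunits 27 fell in mutants (96.4%) and 20 in controls (71.4%).

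Ndufa11, an accessory subunit of the membrane arm, fell the most of the complex I genes. It stood at 44.0 to 52.1 TPM in mutant centrocytes and 77.5 to 148 TPM in mutant centroblasts, with a fold change of -0.98 ± 0.13 (SE, adjusted p = 2.21e-06). In controls it stood at 47.5 to 58.5 TPM in centrocytes and 74.7 to 83.4 TPM in centroblasts, with a fold change of -0.58 ± 0.13 (adjusted p = 0.00164). Library 5 of the mutant centroblasts held the value of 148, and the other 4 were at 77.5 to 102 TPM.

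Further accessory subunits fell in both genotypes. The fold change of Ndufc1, of the membrane arm, was -0.85 in mutants (adjusted p = 1.04e-06) and -0.40 in controls (adjusted p = 0.0056). Ndufb8, also of the membrane arm, fell by 0.84 in mutants (adjusted p = 1.50e-05) and by 0.48 in controls (adjusted p = 0.00616). Ndufa9, which sits where the arms of the complex meet, fell by 0.21 in mutants (adjusted p = 0.0107) and by 0.32 in controls (adjusted p = 0.0013), and was the smallest fall called in mutants. Ndufb7, the most abundant complex I transcript at a mean of 452 TPM, was at 334 to 380 TPM in mutant centrocytes, 344 to 392 TPM in control centrocytes, 462 to 918 TPM in mutant centroblasts and 445 to 502 TPM in control centroblasts.

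Ndufs1, the largest core subunit, which holds several iron-sulphur clusters, went the other way. It was at 119, 125, 116, 116 and 118 TPM in mutant centrocytes and 120, 109, 114, 96.4 and 63.3 TPM in mutant centroblasts. The groups overlapped, and the fold change in mutants was 0.27 ± 0.12 (adjusted p = 0.048). Libraries 4 and 5 held the low values among the mutant centroblasts, and without them the fold change was 0.06 (adjusted p = 0.458). The call was also lost without mutant centroblast library 4 or 5 alone, any 1 of the control centroblast libraries or any 1 of the 10 centrocyte libraries. The sign turned under median-of-ratios scaling, to -0.07, and with the short-transcript share as a covariate, to -0.09. In controls the fold change was -0.01 (adjusted p = 0.951).

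Among the 6 assembly factors of complex I named in the same series, 1 fell and 1 rose in each genotype (16.7% each). Of all genes tested, 12.6% fell and 48.8% rose in mutants, and 9.48% fell and 21.2% rose in controls. These counts are therefore not read as a result about the assembly factors. The gene pair concerned was Ndufaf3 and Ndufaf4, whose products are known to bind each other and to act on the same part of the complex. Ndufaf4 (chr4:24898083-24905001, GRCm38) was at 23.1, 27.9, 23.7, 23.3 and 22.3 TPM in mutant centrocytes and 13.4, 15.4, 15.8, 13.1 and 15.9 TPM in mutant centroblasts. In controls it was at 19.2, 17.3, 20.2, 24.2 and 20.02 TPM in centrocytes and 13.5, 14.8, 10.02, 11.2 and 11.1 TPM in centroblasts. No centrocyte library overlapped a centroblast library, and the fold change was 0.67 ± 0.12 in mutants (adjusted p = 6.94e-05) and 0.70 ± 0.12 in controls (adjusted p = 0.000135).

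Ndufaf3 was at 33.3 to 44.6 TPM in mutant centrocytes and 58.8 to 73.1 TPM in mutant centroblasts, a fold change of -0.74 ± 0.10 (adjusted p = 2.99e-06). In controls it was at 40.3 to 48.9 TPM in centrocytes and 53.4 to 70.2 TPM in centroblasts, a fold change of -0.43 ± 0.10 (adjusted p = 0.00237). The zones did not overlap in either genotype, so the partner genes were called in opposite directions. Ndufaf1, Ndufaf2, Ndufaf5 and Ndufaf6, the other factors of this name series, were not called in either genotype.

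The 4 genes of complex II did not move alike. Sdhb, the iron-sulphur subunit (chr4:140961203-140979193, GRCm38), was at 390, 386, 342, 357 and 405 TPM in mutant centrocytes and 631, 763, 700, 944 and 1039 TPM in mutant centroblasts. In controls it was at 445, 362, 358, 405 and 376 TPM in centrocytes and 718, 579, 683, 629 and 668 TPM in centroblasts. The zones did not overlap in either genotype. The fold change was -1.09 ± 0.11 in mutants (adjusted p = 8.62e-08) and -0.75 ± 0.11 in controls (adjusted p = 2.70e-05). Without mutant centroblast libraries 4 and 5 it was -0.89 in mutants (adjusted p = 9.07e-08).

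Sdha, the flavoprotein subunit that binds Sdhb and holds the succinate site, was not called. It was at 301, 313, 317, 299 and 302 TPM in mutant centrocytes and 330, 296, 285, 247 and 176 TPM in mutant centroblasts, with a fold change of 0.23 ± 0.11 (adjusted p = 0.0721). The control libraries had 320, 282, 297, 294 and 312 TPM in centrocytes and 328, 321, 313, 321 and 319 TPM in centroblasts, with a fold change of -0.09 ± 0.11 (adjusted p = 0.553). The groups overlapped in both genotypes, and mutant centroblast libraries 4 and 5 again held the low values. The Sdhb value per unit of Sdha averaged 1.23 ± 0.101 in mutant centrocytes, 1.29 ± 0.0899 in control centrocytes, 3.34 ± 1.60 in mutant centroblasts and 2.05 ± 0.163 in control centroblasts (SD, n = 5 each). The highest such ratio in a centrocyte library was 1.39 and the lowest in a centroblast library was 1.81, so the zones did not overlap. The pair was picked after its values were seen, and no test is given.

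Sdhc and Sdhd anchor the enzyme in the inner membrane. Sdhc was at 97.9 to 106 TPM in mutant centrocytes and 101 to 135 TPM in mutant centroblasts (fold change -0.30 ± 0.08, adjusted p = 0.00293), with overlap. Controls had 95.1 to 109 TPM in centrocytes and 123 to 143 TPM in centroblasts (-0.39 ± 0.08, adjusted p = 0.000788), without overlap. Sdhd was at 199 to 229 TPM in mutant centrocytes and 198 to 287 TPM in mutant centroblasts, and 189 to 220 TPM in control centrocytes and 235 to 295 TPM in control centroblasts. Its fold change was -0.23 ± 0.09 in mutants (adjusted p = 0.0327) and -0.33 ± 0.09 in controls (adjusted p = 0.00948). The call in mutants was lost without mutant centroblast library 2, 3 or 4, without mutant centrocyte library 3 or 4, and when only the groups compared were fitted, with adjusted p up to 0.0951.

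**Figure D4:**
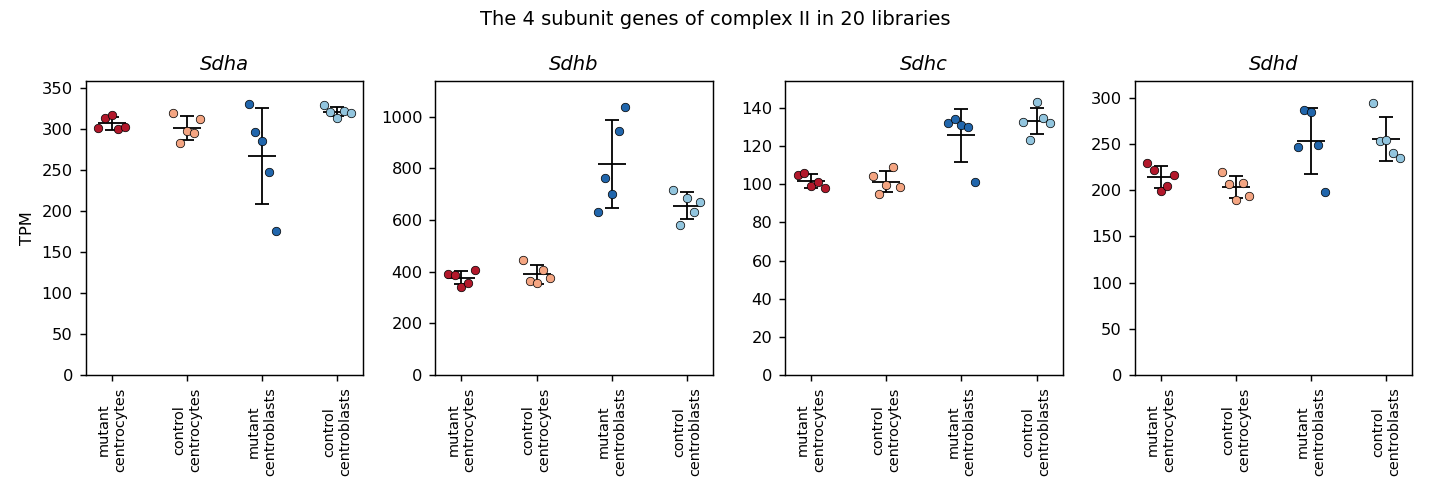
TPM (y axes, from 0) of the 4 subunit genes of complex II in the 20 libraries, with 5 points per group and the mean and SD as bars. Sdhb separates the zones in both genotypes, at 342 to 445 TPM in the centrocyte libraries and 579 to 1039 TPM in the centroblast libraries, while Sdha lies at 282 to 328 TPM in 3 groups and at 176 to 330 TPM in mutant centroblasts.

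Complex III holds a pair of core proteins, the Rieske iron-sulphur protein and small subunits. Of its 8 genes 7 fell in mutants (87.5%) and 4 in controls (50%). Uqcrc1, core protein 1, was at 321, 330, 324, 323 and 316 TPM in mutant centrocytes and 437, 478, 428, 603 and 703 TPM in mutant centroblasts. Among controls it had 363, 350, 299, 326 and 321 TPM in centrocytes and 444, 389, 476, 496 and 458 TPM in centroblasts. Centrocytes and centroblasts did not overlap, and the fold change was -0.68 ± 0.11 in mutants (adjusted p = 2.64e-05) and -0.44 ± 0.11 in controls (adjusted p = 0.0038). Uqcrc2, core protein 2, fell less, by 0.22 in mutants (adjusted p = 0.0232) and by 0.25 in controls (adjusted p = 0.0212), and the difference between these core genes was not tested.

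Uqcrfs1, the Rieske protein, was the only gene called lower in controls and not in mutants. Its fold change was -0.31 ± 0.10 in controls (adjusted p = 0.0249) and -0.13 ± 0.10 in mutants (adjusted p = 0.272), and the difference of the genotype effects was not called (adjusted p = 0.5). The calls of Uqcrc2 and Uqcrfs1 in controls were both lost without control centroblast library 1 and without control centrocyte library 2 or 3, and that of Uqcrfs1 also without control centroblast library 3. The call of Uqcrc2 in mutants was lost without mutant centroblast library 3 or 4 or mutant centrocyte library 3, and when only the groups compared were fitted (adjusted p up to 0.0688). Uqcr10, a small subunit, fell by 0.64 in mutants (adjusted p = 6.78e-05) and by 0.43 in controls (adjusted p = 0.00585). Uqcr11, another small subunit, was at 203 to 242 TPM in mutant centrocytes and 257 to 622 TPM in mutant centroblasts, but 2 other places in the genome hold near-identical copies of its coding sequence and its values are uncertain. Uqcrh, the hinge protein and the most abundant transcript of the complex, was called in mutants (-0.73 ± 0.15, adjusted p = 0.000262) and not in controls (-0.28 ± 0.15, adjusted p = 0.143).

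Complex IV, cytochrome c oxidase, had the largest drop of its summed TPM. The sum averaged 6544 ± 521 in mutant centrocytes, 6786 ± 507 in control centrocytes, 11089 ± 2193 in mutant centroblasts and 9454 ± 745 in control centroblasts (SD, n = 5 each). Centrocytes thus had 0.59 of the centroblast mean in mutants and 0.718 in controls, where complexes I, II, III and V had 0.652 to 0.683 in mutants and 0.729 to 0.808 in controls. The complex IV sum counts Cox7a2l, which averaged 514 TPM in control centrocytes and 833 TPM in control centroblasts and is not a subunit of the enzyme. In controls complex IV, at 0.718, lay close to complex II, at 0.729, and the order without Cox7a2l is not given. Differences between complexes were not tested. Of its 15 tested genes 13 fell in mutants (86.7%) and 10 in controls (66.7%).

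Cox7a2l, a factor that joins complexes III and IV into supercomplexes and not a subunit of the enzyme itself, had the smallest adjusted p of all the genes described here in controls. It was at 450, 374, 360, 480 and 494 TPM in mutant centrocytes and 695, 763, 716, 901 and 746 TPM in mutant centroblasts. The control libraries had 556, 512, 462, 517 and 521 TPM in centrocytes and 951, 784, 779, 765 and 889 TPM in centroblasts. The zones were far apart in both genotypes, with a fold change of -0.83 ± 0.10 in mutants (adjusted p = 6.17e-07) and -0.69 ± 0.10 in controls (adjusted p = 1.47e-05).

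Cox6a1, a regulatory subunit whose promoter is shown above, was at 581, 578, 548, 639 and 665 TPM in mutant centrocytes and 908, 927, 833, 1090 and 1227 TPM in mutant centroblasts. Controls had 678, 616, 559, 575 and 577 TPM in centrocytes and 862, 766, 910, 992 and 921 TPM in centroblasts. There was no overlap between the zones, and the fold change was -0.72 ± 0.10 in mutants (adjusted p = 3.83e-06) and -0.56 ± 0.10 in controls (adjusted p = 0.000158). Cox6b1, which faces the intermembrane space, fell by 0.80 in mutants (adjusted p = 6.07e-06) and by 0.58 in controls (adjusted p = 0.000468). Cox7a2 fell by 0.87 in mutants (adjusted p = 5.49e-06) and by 0.50 in controls (adjusted p = 0.00331), and Cox8a by 0.46 (adjusted p = 0.000371) and 0.42 (adjusted p = 0.00215).

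Cox4i1, the most abundant of all 91 transcripts at a mean of 1871 TPM and a subunit through which ATP regulates the enzyme, showed how far libraries 4 and 5 stood out. It was at 1332, 1313, 1213, 1373 and 1460 TPM in mutant centrocytes and 1824, 2229, 2068, 3242 and 4407 TPM in mutant centroblasts. Among controls it had 1530, 1343, 1334, 1415 and 1375 TPM in centrocytes and 2191, 1711, 2059, 1969 and 2037 TPM in centroblasts. Centrocytes and centroblasts did not overlap, and the fold change was -0.96 ± 0.16 in mutants (adjusted p = 3.58e-05) and -0.51 ± 0.16 in controls (adjusted p = 0.0183). Without mutant centroblast libraries 4 and 5 the value in mutants was -0.61 (adjusted p = 5.00e-06). Ndufa4, named for complex I but now counted as a subunit of complex IV, fell by 0.70 in mutants (adjusted p = 3.22e-05) and by 0.39 in controls (adjusted p = 0.0114).

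Several complex IV subunits have isoforms that are used in muscle, lung or testis, and the common isoform made up nearly all of the transcripts in every group. Cox4i1 held on average at least 99.9% of the Cox4 transcripts, Cox6a1 at least 99.8% of Cox6a, Cox6b1 99.5% to 99.7% of Cox6b, and Cox7a2 98.0% to 98.6% of the sum with Cox7a1. Cox8b, Cox8c and Cox7b2 were listed at 0 in all 20 libraries, and Cox6a2 and Ndufa4l2 had means of 0.533 and 0.491 TPM and did not pass the filter. Of the rare isoforms that were tested, Cox6b2 was at 0.730 to 5.54 TPM in mutant centrocytes and 4.86 to 12.8 TPM in mutant centroblasts, with overlap, and at 1.82 to 4.79 TPM in control centrocytes and 2.81 to 9.80 TPM in control centroblasts. It fell in mutants with a fold change of -1.35, the largest fall of all 85 genes. Cox4i2, the isoform known from lung, was at 0 to 0.609 TPM in mutant centrocytes and 0.311 to 4.81 TPM in mutant centroblasts, and its call in mutants (-0.87, adjusted p = 0.0201) was lost without mutant centroblast library 4, which held the highest value, or mutant centrocyte library 2. Cox7a1, the muscle isoform, was at 2.86 to 11.6 TPM in mutant centrocytes, 4.93 to 9.004 TPM in control centrocytes, 3.09 to 16.3 TPM in mutant centroblasts and 1.99 to 12.6 TPM in control centroblasts, and was not called in either genotype.

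The ATP synthase has a catalytic head in the matrix, a rotating ring of c subunits in the membrane and a stalk that holds the head still. Of its 15 genes 13 fell in mutants (86.7%) and 9 in controls (60%). Atp5b, the catalytic beta subunit and the most abundant transcript of the complex at a mean of 1775 TPM, was at 1516, 1673, 1587, 1551 and 1612 TPM in mutant centrocytes and 2002, 2091, 1902, 2086 and 1586 TPM in mutant centroblasts. The control libraries had 1687, 1475, 1463, 1593 and 1527 TPM in centrocytes and 2070, 1792, 2089, 2173 and 2033 TPM in centroblasts. There was no overlap between the zones in controls, and in mutants centroblast library 5 lay among the centrocytes. The fold change was -0.28 ± 0.08 in mutants (adjusted p = 0.00357) and -0.39 ± 0.08 in controls (adjusted p = 0.00057). Atp5a1, the alpha subunit of the same head, fell by 0.26 in mutants (adjusted p = 0.00262) and by 0.36 in controls (adjusted p = 0.000457).

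Subunits of the membrane part and the stalk were also called. Atp5k, subunit e, fell by 0.91 in mutants (adjusted p = 9.97e-06), and Atp5j2, subunit f, by 1.03 (adjusted p = 3.82e-05). The stalk subunit Atp5o fell by 0.70 in mutants (adjusted p = 7.10e-05). Atp5k was also called lower in controls under all 29 alternatives, with fold changes of -0.602 to -0.345 and adjusted p up to 0.0359. In controls Atp5j2 fell by 0.45 (adjusted p = 0.0466) and Atp5o by 0.34 (adjusted p = 0.0408), and these calls were lost under 15 and 11 of the 29 alternatives, with adjusted p up to 0.123 and 0.0875. Among libraries left out in turn, both were lost without control centroblast library 1, 3 or 5 or control centrocyte library 2, 3, 4 or 5, that of Atp5o also without control centroblast library 4, and that of Atp5j2 also without any 1 of the mutant centrocyte libraries. Atp5k and Atp5o each have 1 near-identical copy elsewhere in the genome. Atp5j, of the stalk, fell by 0.36 in mutants (adjusted p = 0.00193) and by 0.33 in controls (adjusted p = 0.00876).

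The c subunit of the ring is encoded by Atp5g1, Atp5g2 and Atp5g3, whose mature proteins are identical. Atp5g3 held most of the transcripts, with 90.6% ± 0.998 in mutant centrocytes, 91.9% ± 0.627 in control centrocytes, 93.3% ± 0.516 in mutant centroblasts and 93.9% ± 1.18 in control centroblasts (SD, n = 5 each). Atp5g3 was at 895, 897, 817, 851 and 944 TPM in mutant centrocytes and 1147, 1238, 1300, 1378 and 1350 TPM in mutant centroblasts. Controls had 997, 894, 845, 969 and 897 TPM in centrocytes and 1221, 1011, 1173, 1176 and 1127 TPM in centroblasts. Centrocytes and centroblasts did not overlap, and the fold change was -0.54 ± 0.07 in mutants (adjusted p = 2.84e-06) and -0.31 ± 0.07 in controls (adjusted p = 0.00233). Atp5g1 was not called, with fold changes of -0.02 in mutants (adjusted p = 0.912) and 0.20 in controls (adjusted p = 0.16). It held 8.44% ± 0.861 of the sum with Atp5g3 in mutant centrocytes, 7.32% ± 0.426 in control centrocytes, 6.01% ± 0.519 in mutant centroblasts and 5.32% ± 1.13 in control centroblasts, and it has 1 near-identical copy. Atp5g2 also has at least 1 near-identical copy, so its values and the shares of Atp5g3 given above are uncertain.

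Near-identical copies marked the low end of the levels. Of 74 genes for subunits of the 5 complexes, without the rare isoforms and assembly factors, 68 had a mean between 69.9 and 1871 TPM over the 20 libraries and 6 had less than 30 TPM. Each of these 6 had at least 1 other place in the genome with at least 95% identity over at least 80% of the coding sequence, as did 14 of the 68. The low genes were Ndufs5, which was listed at 0 in every library, Atp5g2 at 9.96, Ndufab1 at 14.1, Ndufb4 at 14.5, Atp5l at 20.1 and Cox7c at 21.9 TPM. Their products are subunits that the complexes of every tissue hold, and the part of the copies in these low values was not tested.

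Genes around the chain were taken from lists that the rule above does not cover. Their counts are read against the shares of all genes given above, 12.6% falling and 48.8% rising in mutants and 9.48% falling and 21.2% rising in controls. Of 30 further assembly factors 5 fell (16.7%) and 10 rose (33.3%) in mutants, and 5 fell (16.7%) and 3 rose (10%) in controls. Among them Atpif1, the inhibitor of the ATP synthase, fell by 0.91 in mutants (adjusted p = 2.64e-06) and by 0.56 in controls (adjusted p = 0.00122), and Cox17, a copper chaperone for complex IV, by 0.41 (adjusted p = 0.000187) and 0.35 (adjusted p = 0.00202). Sco2, another copper chaperone, fell by 0.57 in controls (adjusted p = 0.000235). Sdhaf1, which assembles Sdhb, averaged 44.3 ± 3.07 TPM in mutant centrocytes, 39.4 ± 3.09 TPM in control centrocytes, 33.5 ± 4.89 TPM in mutant centroblasts and 27.6 ± 4.10 TPM in control centroblasts (SD, n = 5 each). It was thus called against the direction of Sdhb, with fold changes of 0.40 in mutants (adjusted p = 0.00437) and 0.51 in controls (adjusted p = 0.0019), and both calls were lost under median-of-ratios scaling, with adjusted p = 0.769 in mutants and 0.0721 in controls. Lrpprc, which stabilises mitochondrial messenger RNA, rose by 0.93 in mutants (adjusted p = 6.43e-05) and by 0.49 in controls (adjusted p = 0.0243), and the call in controls was lost without control centroblast library 3 or 5 or control centrocyte library 2. Acad9, an assembly factor of complex I, rose by 0.63 in mutants (adjusted p = 0.00121), a call lost with the short-transcript share as a covariate.

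Of 18 tested nuclear regulators of the chain 12 rose (66.7%) and 1 fell in mutants, and 3 rose (16.7%) in controls, where 48.8% and 21.2% of all genes rose. Their median fold change was 0.41 in mutants, against 0.34 for all genes, and 0.18 in controls, against 0.14, so the list as a whole was near the background. Pprc1, a coactivator of NRF1, averaged 25.99 ± 6.62 TPM in mutant centrocytes, 20.1 ± 2.15 TPM in control centrocytes, 9.50 ± 3.28 TPM in mutant centroblasts and 9.78 ± 2.15 TPM in control centroblasts (SD, n = 5 each). Its fold change was 1.38 ± 0.19 in mutants (adjusted p = 5.07e-06) and 0.98 ± 0.19 in controls (adjusted p = 0.000524). In controls Esrra, a nuclear receptor that binds respiratory genes, and Creb1 also rose, by 0.44 (adjusted p = 0.021) and 0.38 (adjusted p = 0.0325), and both calls were lost without control centroblast library 1 or control centrocyte library 2 or 3, that of Creb1 also without control centroblast library 3, 4 or 5 or control centrocyte library 4 or 5, taken out 1 at a time. In mutants Ppargc1b, a coactivator of the same family as Pprc1, rose by 1.05 (adjusted p = 0.000121), and Mtor, the kinase of the growth pathway, by 0.92 (adjusted p = 0.00059), a call lost with the short-transcript share as a covariate. Adck3, which supports coenzyme Q synthesis, rose by 1.34 in mutants (adjusted p = 2.16e-08) and by 1.13 in controls (adjusted p = 5.88e-07), and was the only one of 13 coenzyme Q genes called in controls, where 3 rose (23.1%) and 2 fell (15.4%) in mutants. Also called in mutants were Coq10a (0.31, adjusted p = 0.0463, named to complete the count and not run under the alternatives), Coq10b (0.47, adjusted p = 0.00185, lost under median-of-ratios scaling), Coq6 (-0.42, adjusted p = 0.00242) and Coq9 (-0.24, adjusted p = 0.0373, lost under 8 alternatives).

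Of 21 genes of the citrate cycle and pyruvate entry 5 fell (23.8%) and 4 rose (19%) in mutants, and 6 fell (28.6%) in controls. Idh3g, a subunit of the NAD-dependent isocitrate dehydrogenase, fell by 0.54 in mutants (adjusted p = 2.55e-07) and by 0.46 in controls (adjusted p = 5.79e-06). Idh2, the NADP-dependent enzyme, fell by 0.88 in mutants (adjusted p = 8.24e-06) and by 0.80 in controls (adjusted p = 5.88e-05). Mdh2, Suclg2 and Fh1, all citrate cycle enzymes, fell in both genotypes as well, while Dlat, a subunit of pyruvate dehydrogenase, rose by 0.45 in mutants (adjusted p = 0.00106), a call lost under median-of-ratios scaling and with the short-transcript share as a covariate. Of 28 genes of protein import and cristae 14 fell (50%) and 7 rose (25%) in mutants, and 9 fell (32.1%) and 1 rose (3.57%) in controls, with Tomm22, the central import receptor, lower by 0.49 in mutants (adjusted p = 1.97e-05) and 0.44 in controls (adjusted p = 0.000156). Timm17b, Timm22 and Tomm7 of the import machinery and Minos1 of the cristae junctions also fell in both genotypes, and the call of Tomm7 in controls was lost without control centroblast library 1 or control centrocyte library 2. Of 12 tested subunits and electron carriers outside the rule 4 fell and 4 rose in mutants (33.3% each), and 3 fell (25%) in controls, namely Usmg5 of the ATP synthase, Cyc1, the cytochrome c1 of complex III, and Etfb, an electron transfer flavoprotein. The call of Etfb in controls was lost without control centroblast library 1 or 3 or control centrocyte library 2, 3 or 5. Of 13 tested carriers of the inner membrane 3 fell (23.1%) and 1 rose (7.69%) in mutants, and Vdac3, a channel of the outer membrane placed in the same list, fell by 0.78 in mutants (adjusted p = 2.84e-06) and alone fell in controls, by 0.34 (adjusted p = 0.0146), a call lost without control centroblast library 1. Also called in mutants were Slc25a10, the dicarboxylate carrier (-0.31, adjusted p = 0.0243), and Slc25a13, an aspartate and glutamate carrier (0.54, adjusted p = 0.0038). The call of Slc25a13 was lost under median-of-ratios scaling and with the covariate, and that of Slc25a10 with the covariate, with the replicate block, without mutant centroblast libraries 4 and 5 and without mutant centrocyte library 5. The symbol 2010107E04Rik, of the list of subunits, fell by 0.86 in mutants (adjusted p = 0.000174).

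The Myd88 genotype was set against the same genes within each zone. In centroblasts 1 of the 85 genes rose in mutants and none fell, where 0.905% of all genes tested rose and 3.38% fell. Unadjusted p was under 0.05 for 30 of the 85. The share of all genes under that limit is not given here, so this count is not read as a result about these genes. The median fold change of the 85 genes was 0.20, against -0.16 for all genes tested, and after median-of-ratios scaling, which moved the median of all genes by -0.17, it was 0.39 with 3 genes called higher (3.53%), where 2.49% of all genes were. In summed TPM, mutant centroblasts had 1.07 to 1.21 times the control mean in each of the 5 complexes.

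These higher means rested on 2 libraries. All 91 genes together took 3.31%, 3.60%, 3.63%, 4.42% and 5.04% of the TPM in mutant centroblasts 1 to 5 and 3.71%, 3.15%, 3.43%, 3.29% and 3.47% in control centroblasts. Libraries 4 and 5 were above every control library, and the other 3 lay among the controls. Without libraries 4 and 5 the median fold change was 0.05, against -0.02 for all genes tested, and no gene was called. The median was 0.22 for the respiratory genes with short transcripts and 0.01 for the longer ones, against 0.03 and -0.21 for other short and other long genes. With the short-transcript share as a covariate the median was 0.01 and no gene was called. The count of calls depended on the libraries left in, since 27 genes (31.8%) were called higher and 2 (2.35%) lower without mutant centroblast library 1, where 3.71% of all genes were called higher and 23.5% lower, and 6 (7.06%) higher without library 2, where 1.02% of all genes were. A count of 2 higher was found without mutant centroblast library 3, control centroblast library 1, control centroblast library 2 or mutant centrocyte library 2, where 0.404% to 0.764% of all genes were called higher.

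The gene called was Ndufa1, an accessory subunit of complex I encoded on the X chromosome (chrX:37187588-37191163, GRCm38). It was at 302, 369, 367, 384 and 396 TPM in mutant centroblasts and 318, 250, 249, 234 and 270 TPM in control centroblasts. Mutant library 1 lay below control library 1, and the other mutants were above all controls. The fold change was 0.46 ± 0.10 (SE, adjusted p = 0.0168). It was 0.39 without mutant libraries 4 and 5 (adjusted p = 0.0512), and the call was also lost when only centroblast libraries were fitted and with the short-transcript share as a covariate, with adjusted p up to 0.108. In centrocytes Ndufa1 was at 311, 242, 257, 226 and 237 TPM in mutants and 246, 223, 187, 220 and 210 TPM in controls, with overlap, and was not called (0.22, adjusted p = 0.463). Between the zones Ndufa1 fell by 0.52 in mutants (adjusted p = 0.00022) and by 0.28 in controls (adjusted p = 0.0409), and the call in controls was lost under 9 alternatives, among them without control centroblast library 1, 3 or 5 or control centrocyte library 2, 3, 4 or 5.

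**Figure D5:**
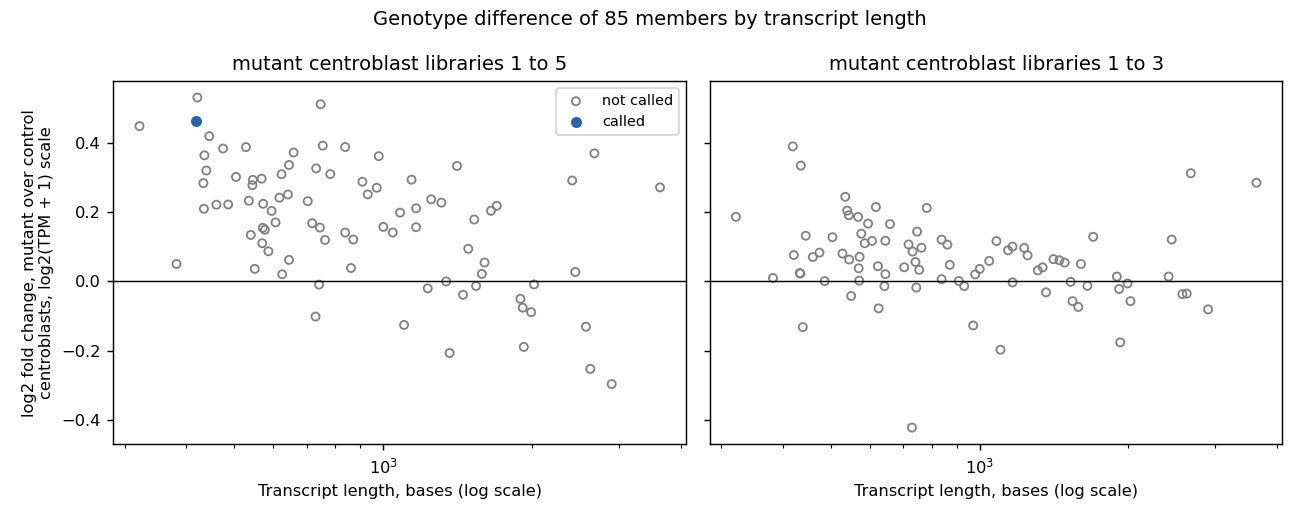
Log2 fold change of mutant over control centroblasts (y axis) against transcript length (x axis, log scale) for the 85 tested genes, with all 5 mutant libraries on the left and libraries 1 to 3 on the right. With all libraries most short transcripts lie above 0 and Ndufa1 is called, and with libraries 1 to 3 the median is 0.05 and none is called.

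Ndufa7, an accessory subunit of complex I, was the only gene whose 5 mutant centroblast libraries lay above all 5 controls, which 0.755% of all genes did, and it was not called (0.39, adjusted p = 0.0857). Around the chain, Prodh, proline dehydrogenase, which feeds electrons to coenzyme Q, averaged 4.99 ± 2.58 TPM in mutant centroblasts and 1.94 ± 0.297 TPM in control centroblasts (SD, n = 5 each; fold change 0.93, adjusted p = 0.0461). Fh1, the fumarase, averaged 325 ± 33.2 TPM in mutant centroblasts and 410 ± 51.5 TPM in control centroblasts (-0.33, adjusted p = 0.0493). The call of Prodh was lost under 18 of 28 alternatives (adjusted p up to 0.168), among them without mutant centroblast library 2 or 3, any 1 of the control libraries, or mutant centrocyte library 1, 3 or 4. That of Fh1 was lost under 23 of 29 (adjusted p up to 0.452), among them without mutant centroblast library 3, 4 or 5, any 1 of the control libraries, or mutant centrocyte library 1, 2, 4 or 5. Erythroid transcripts moved with the genotype. Of 11 listed markers 8 were found, and their summed TPM was 323 to 808 in mutant centroblasts and 22.8 to 270 in control centroblasts, and 233 to 580 in mutant centrocytes and 41.6 to 273 in control centrocytes. Most of this was the globin symbol Beta-s, at 314 to 777 TPM in mutant centroblasts and 20.9 to 260.4 TPM in control centroblasts. Of the 4 tested, 3 were higher in mutant centroblasts and 1 in mutant centrocytes. The globin symbols Hba-a1, Hba-a2 and Hbb-b2 were listed at 0 in every library, and the part of erythroid RNA in the genotype values was not tested.

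In centrocytes no respiratory chain or ATP synthase gene was called by limma between the genotypes, where 0.896% of all genes tested rose and 0.307% fell. Unadjusted p was under 0.05 for 4 of the 85, again without the share of all genes beside it. The median fold change was -0.02, against 0.02 for all genes. The means of the 5 summed complexes in mutant centrocytes were 0.964 to 1.004 times those of controls. The smallest adjusted p was that of Cox7a2l (0.278), which was at 360 to 494 TPM in mutant centrocytes and 462 to 556 TPM in control centrocytes, with a fold change of -0.26 ± 0.10.

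The difference of the genotype effect between the zones was not called by limma for any of the 85 genes, where 0.0176% of all genes tested were lower and 0% higher. Unadjusted p was under 0.05 for 14 of the 85, a count likewise given without the share of all genes, and the smallest adjusted p was 0.403. The median difference was -0.21, against 0.18 for all genes, and -0.07 against 0.04 without mutant centroblast libraries 4 and 5. The larger falls between the zones in mutants than in controls are therefore given as values of each genotype, and the test of the difference did not call them.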

How the data were processed

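The 20 RNA libraries were grouped by their sort and genotype labels. Per the labels' protocols they were made with a stranded mRNA kit. The authors deposited 1 TPM value for each symbol and library. STAR and the build mm10 are named in the submitters' processing notes, while the sources used here give no versions, annotation or counting tool. Each library adds up to an equal TPM total, so the depth is unknown.

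From these values a linear model with 4 group means was fitted to log2(TPM + 1) of all 20 libraries with limma 3.58.1 (R 4.3.3), using trended and robust empirical Bayes, two-sided tests and Benjamini-Hochberg adjustment over the 11386 genes that reached 1 TPM in 5 or more libraries. The fit was tested on simulated data. All 91 genes matched GENCODE M21 (GRCm38, the assembly of mm10), which gave positions, lengths and, with BLAST, near-identical copies. Promoters are from RefSeq (GRCm38.p6). Of the 91 genes 85 passed the filter. Ndufs5, Cox7b2, Cox8b and Cox8c were listed at 0, and Cox6a2 and Ndufa4l2 were under it. Genes named in the text were all of complex II, the most abundant gene of each other complex, the isoform families, the 4 called members of each complex with the smallest adjusted p per zone comparison and direction, all called between genotypes, and those called against most of their complex, and from each further list up to 4 called per zone comparison and 3 per genotype comparison. Some genes that this rule names are not reported here. The members, lists and rules were chosen with earlier results of these data known. Ndufa7 and the Sdhb to Sdha ratio were looked at after their values were seen. Alternatives were another pseudocount, other filters, median-of-ratios scaling, separate fits, a replicate block, no trend, a covariate and libraries left out.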

Additional observations from a re-analysis of the deposited data

Results flagged for a closer look

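A library far from the other 4 of its group was found for 8 of 176 groups of 5 that were tested among the named genes, where chance flags about 1 in 20 groups. In mutant centroblasts library 5 was low for Sdhc, at 101 TPM, and for Uqcrc2, at 352 TPM, and library 4 was high for Cox4i2, at 4.81 TPM. In mutant centrocytes library 2 was high for Ndufaf4, at 27.9 TPM, and library 5 was high for Ndufc1, at 182.5 TPM. In control centrocytes library 3 was high for Atp5g2, at 12.7 TPM, and for Cox4i2, at 2.755 TPM, and low for Ndufc1, at 141 TPM.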

How the results depend on the processing

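The counts lower between the zones, 70 in mutants and 51 in controls, stayed within 1.5 times under all alternatives, at 52 to 78 and 35 to 64, with 66 to 71 and 35 to 60 when libraries were left out 1 at a time. The count higher in mutant centroblasts was 1, and it was 2 with the filter at 5 TPM, 3 under median-of-ratios scaling, 3 with the replicate block, 0 with only the groups compared, 0 without mutant centroblast libraries 4 and 5, 0 with the short-transcript share as a covariate, and 1 to 27 with libraries left out 1 at a time (0 to 2 for the count lower). The count higher in mutants between the zones was 2, and it was 1 under median-of-ratios scaling, with only the groups compared, without mutant centroblast libraries 4 and 5, without trend and robust, and with the covariate, and 1 to 3 with libraries left out. In controls it was 1, and 1 to 2 with libraries left out. Ndufs1 in mutants turned to -0.0749 under median-of-ratios scaling (adjusted p = 0.376) and to -0.0854 with the covariate (adjusted p = 0.449), and the cause was not tested. Counts between genotypes in centrocytes and for the difference were 0 under every alternative run. The call of Ndufaf4, Sdhb, Cox7a2l and Cox6a1 between the zones held in both genotypes under every alternative.

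Replicate numbers were not taken as pairs, since the labels do not say that they mark a shared mouse. Same-numbered libraries of the zones did correlate more than others. Their mean correlation was 0.175 in mutants, against -0.0433 for other numbers, and 0.162 against -0.0404 in controls. These are correlations of deviations from the group means, which cancel out within a group. The value for other numbers therefore largely mirrors that for the same number and is not a separate comparison. The main fit takes no account of the correlation between same-numbered libraries, and its source was not tested. Between the zones the correlation was over 0.1 for 4 of 5 numbers in each genotype. For genotypes this held for 1 of 5 in centroblasts and 3 of 5 in centrocytes, with means of -0.00769 against 0.000907 and 0.113 against -0.0283. A library correlated best with its own number for 2 of 5 in mutants and 4 of 5 in controls between the zones. With the replicate block 70 genes fell in mutants and 58 in controls, and the one call of a named gene lost was that of Slc25a10 in mutants. TPM without counts limits what can be said of low genes. That the libraries of a group are separate mice is not stated.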
